A study of Arabidopsis thaliana with 12 samples.

Results

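The genes sought here were nuclear genes of Arabidopsis named for photosystem I, photosystem II, their light-harvesting antennae, the thylakoid electron carriers, the chloroplast NADH dehydrogenase-like (NDH) complex or the small subunit of Rubisco. They were chosen by name alone: a probe set that matches 1 nuclear gene was taken where a symbol or synonym of that gene starts with LHCA, LHCB, PSA, PSB, PNSL, PNSB, NDH, PET or RBCS. The table of the array platform gave 10 such genes among 16764 probe sets. Of these, 9 are photosynthesis genes: LHCB4.1 (AT5G01530), LHCB4.2 (AT3G08940), LHCB4.3 (AT2G40100), PSAE-1 (AT4G28750), PSAN (AT5G64040), PSB27 (AT1G03600), PSBW (AT2G30570), PSBY (AT1G67740) and NdhN (AT5G58260). The remaining one, PTL (AT5G03680), matched only through its full name PETAL LOSS and encodes a transcription factor of flower development. A further 10 genes with such names were paired with a probe set only in the study's own tables, which list genes the study had called changed on these same arrays. They are therefore described apart and without tests, except for an interaction of PPAN that is flagged near the end. No probe set was named here for 50 of the 70 nuclear genes that carry such names in the gene reference. Genes for the small subunit of Rubisco were absent from both sets, and the 9 hold no photosystem I antenna gene and no electron carrier.

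RNA was measured in shoots of 18-d-old seedlings of 4 genotypes, with arrays of 3 biological replicates for each, as the study's methods state. The mutants were brm-1, a null allele of the gene for BRM, the ATPase of a SWI/SNF chromatin remodeling complex; ga1-3, which is impaired in an early step of gibberellin (GA) biosynthesis; and the double mutant ga1-3/brm-1. They were compared with wild type (wt). All plants were Col-0, grown on half-strength MS agar with sucrose. The ga1-3 allele had been introgressed into Col-0, and PSAE-1 was the only one of the 9 genes on chromosome 4, which carries GA1. Seeds with ga1-3 were imbibed in gibberellin and washed before sowing, so those plants had met the hormone once. Homozygous brm-1 plants are sterile, and both brm-1 and ga1-3/brm-1 seedlings were therefore picked by genotyping from segregating families. The comparisons ask how the loss of BRM, a shortage of gibberellin, or both together change the transcript levels of these genes.

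Photosystems II and I work in series in the thylakoid membrane: light collected by chlorophyll-binding antenna proteins drives electrons from water through plastoquinone, the cytochrome b6f complex and plastocyanin to ferredoxin. The core subunits that carry most of the cofactors are encoded in the chloroplast genome, whereas the antenna proteins and many small or peripheral subunits are encoded in the nucleus and imported. In green shoots their transcripts are among the most abundant of the nuclear genome, and their transcription responds to light, the circadian clock and the state of the chloroplast.

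The BRM probe set was near background in both genotypes with the brm-1 allele, with a log2 signal of 2.88 ± 0.14 (SD, n = 3) in ga1-3/brm-1 and 2.89 ± 0.11 in brm-1, against 8.14 ± 0.19 in ga1-3 and 7.88 ± 0.06 in wt. No probe set was paired with GA1, so the ga1-3 label was not checked in this way. The leaf genes RCA (Rubisco activase), SBPASE and HPR had mean signals between 11.58 and 14.46 in every genotype. The abundance of cell types and the RNA content per cell cannot be told apart in whole shoots. Replicate 3 of brm-1 stood apart from the other 11 arrays: on the first principal component of the spread within genotypes it lay at 37.78, its 2 sister arrays at -19.98 and -17.8, and all others between -9.8 and 6.99. It gave the lowest brm-1 value for 7 of the 9 genes and the highest for 1, so values without it are given where a call among these 9 turns on it. Replicate 3 of ga1-3 had the widest gap between the 3′ and 5′ actin control signals, 2.163 on the log2 scale, against 1.1 to 1.896 on the other arrays.

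Among the 10 genes the antenna gene LHCB4.3 had the widest log2 fold changes against wt. It fell 2.63-fold in brm-1, rose 3.14-fold in ga1-3 and was not called in the double mutant, where its array values overlapped with wt. In the double mutant LHCB4.2 and PSAN fell, by 1.67-fold and 1.75-fold. The other photosynthesis genes stayed within 1.5-fold of wt in every mutant. A gene was called changed at an adjusted p below 0.05 and a fold change above 1.5. Of the 10 genes, 0 rose and 1 fell in brm-1, where 7.09% of all probe sets rose and 7.58% fell. In ga1-3, 1 rose and 0 fell, where 4.06% of all probe sets rose and 4.74% fell. In ga1-3/brm-1, 1 rose (PTL, near background) and 2 fell, where 12% of all probe sets rose and 11.6% fell. The counts of calls are thus of the order found over the whole table.

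Without the threshold on fold change the picture was one of small shifts. The adjusted p alone was below 0.05 for 3 of the 10 genes in brm-1, against 21.7% of all probe sets, and for 7 of the 10 in ga1-3/brm-1, against 37.2% of all probe sets. The median log2 fold change of the 9 photosynthesis genes was -0.27 for brm-1, -0.16 for ga1-3 and -0.28 for ga1-3/brm-1, whereas that of all probe sets was 0.01, 0.02 and -0.02 in the same mutants. All 3 brm-1 arrays lay below all wt arrays for 6 of the 9 genes and above them for 0, where 19% of all probe sets lay below and 20.4% above. For ga1-3 the counts were 2 below and 1 above, where 15.7% of all probe sets lay below and 18.3% above. For ga1-3/brm-1 they were 6 below and 1 above, where 27.8% lay below and 25.4% above. The 3 comparisons share the wt arrays, so their counts are not independent of each other.

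**Figure D1:**
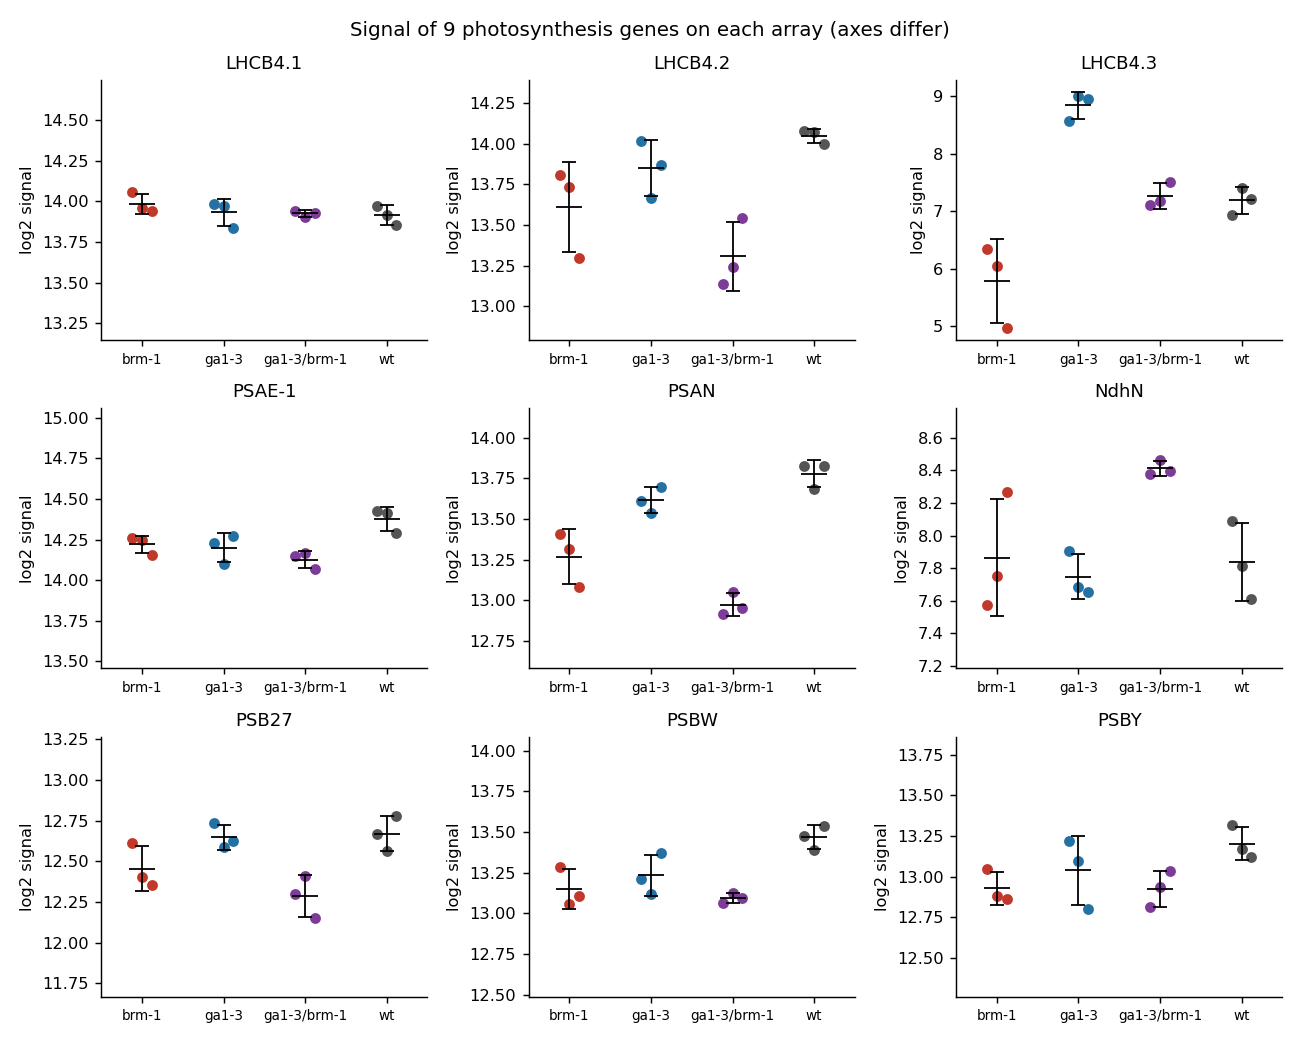
Log2 signal of the 9 photosynthesis genes named by the platform table on each of the 12 arrays; dots are arrays (replicates 1 to 3 from left to right), horizontal bars are means and error bars are SD, and each panel has its own axis. LHCB4.3 separates brm-1 (4.97 to 6.35) and ga1-3 (8.56 to 9.004) from wt (6.94 to 7.41), whereas the 12 values of LHCB4.1 lie between 13.84 and 14.06.

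LHCB4 proteins are minor antenna proteins that link the main light-harvesting trimers to the core of photosystem II, and Arabidopsis has 3 genes for them. LHCB4.3, a divergent copy of this family, had log2 signals of 6.35, 6.06 and 4.97 in brm-1, of 8.564, 9.004 and 8.952 in ga1-3, and of 7.11, 7.18 and 7.52 in ga1-3/brm-1, against 6.94, 7.41 and 7.22 in wt. All brm-1 arrays were thus lower and all ga1-3 arrays higher than every wt array, while those of the double mutant overlapped with wt. Loss of BRM alone gave a log2 fold change of -1.40 ± 0.30 (standard error, adjusted p = 0.00872), and ga1-3 alone gave 1.65 ± 0.30 (adjusted p = 0.00598). In the double mutant it was 0.08 ± 0.30 (adjusted p = 0.873), with a 95% interval from -0.59 to 0.75 that still holds a change of 1.5-fold either way. Without replicate 3 of brm-1 the fall in brm-1 was 0.99 on the log2 scale and was still called. Set directly against ga1-3, brm-1 was lower by 3.05 ± 0.30 on the log2 scale (adjusted p = 0.000114).

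LHCB4.2 had 13.81, 13.73 and 13.30 in brm-1, 14.01, 13.67 and 13.87 in ga1-3, and 13.13, 13.24 and 13.54 in ga1-3/brm-1, against 14.075, 14.071 and 13.998 in wt. The wt arrays were the tightest group and lay above every brm-1 and every double mutant array, but overlapped with ga1-3. The log2 fold change was -0.74 ± 0.15 in ga1-3/brm-1 (adjusted p = 0.00356), and LHCB4.2 fell there. The brm-1 value of -0.44 ± 0.15 (adjusted p = 0.0673) did not pass, nor did the ga1-3 value of -0.20 ± 0.15 (adjusted p = 0.448). LHCB4.1 had 14.06, 13.96 and 13.94 in brm-1, 13.99, 13.97 and 13.84 in ga1-3, and 13.94, 13.91 and 13.93 in ga1-3/brm-1, against 13.97, 13.92 and 13.85 in wt. Its 4 genotypes overlapped, and its log2 fold changes were 0.07, 0.02 and 0.01 in brm-1, ga1-3 and the double mutant (± 0.07 each), with 95% intervals that lay between -0.15 and 0.23. The 3 copies of the family thus gave different profiles over the same arrays, but they were not tested against each other. Unlike LHCB4.3, LHCB4.1 and LHCB4.2 had signals near the top of the scale in every genotype. Each was read by a probe set of the plain type, which the array design assigns to a single gene.

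**Figure D2:**
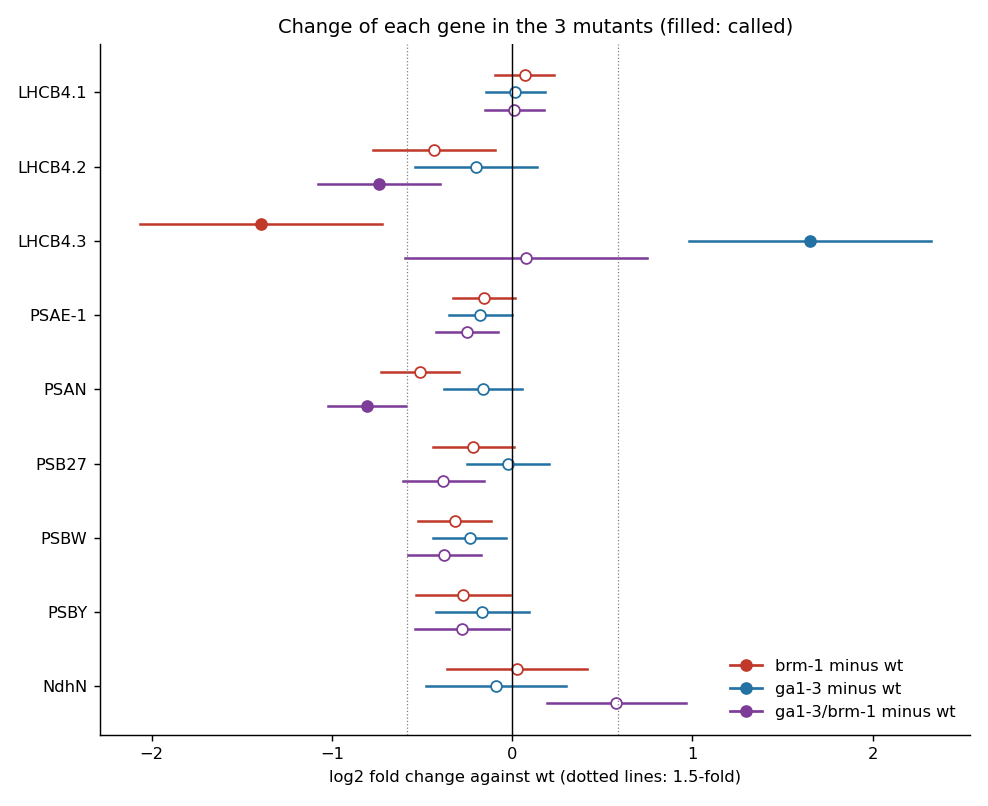
Log2 fold change of each of the 9 genes in brm-1, ga1-3 and the double mutant against wt; lines are 95% intervals, filled dots are called genes and dotted lines mark 1.5-fold. LHCB4.3 is called at -1.40 in brm-1 and 1.65 in ga1-3, and LHCB4.2 and PSAN are called at -0.74 and -0.81 in ga1-3/brm-1.

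In photosystem I, PSAN is a small subunit on the lumenal side, where plastocyanin docks, and PSAE lies on the stromal side, where ferredoxin docks. PSAN had 13.41, 13.32 and 13.08 in brm-1, 13.61, 13.54 and 13.70 in ga1-3, and 12.91, 13.05 and 12.95 in ga1-3/brm-1, against 13.82, 13.68 and 13.83 in wt. The double mutant was lowest with no overlap, brm-1 came next and was also clear of the others, and ga1-3 overlapped with wt. PSAN fell by 0.81 ± 0.10 on the log2 scale in ga1-3/brm-1 (adjusted p = 0.000158). In brm-1 the log2 fold change of -0.51 ± 0.10 had an adjusted p of 0.00455 but was below 1.5-fold, and in ga1-3 it was -0.16 ± 0.10 (adjusted p = 0.319). PSAE-1 had 14.26, 14.25 and 14.16 in brm-1, 14.23, 14.10 and 14.27 in ga1-3, and 14.15, 14.17 and 14.07 in ga1-3/brm-1, against 14.42, 14.41 and 14.29 in wt. Every mutant array was below every wt array, by a small margin. The log2 fold changes of PSAE-1 were -0.16, -0.18 and -0.25 in brm-1, ga1-3 and the double mutant, with adjusted p of 0.19, 0.167 and 0.0287, and none reached 1.5-fold.

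The photosystem II genes outside the antenna were PSB27, PSBW and PSBY. PSB27 is a lumenal factor that binds photosystem II during its assembly and repair, PSBW is a small membrane subunit that stabilizes the supercomplex with the antenna, and PSBY is a small membrane subunit of the core. PSBW had 13.29, 13.06 and 13.11 in brm-1, 13.21, 13.12 and 13.37 in ga1-3, and 13.06, 13.12 and 13.09 in ga1-3/brm-1, against 13.48, 13.39 and 13.54 in wt. The 3 mutants overlapped with each other, and every one of their arrays was below wt. With brm-1 its log2 fold change was -0.32 ± 0.09 (adjusted p = 0.0309), with ga1-3 -0.24 ± 0.09 (adjusted p = 0.117) and with both -0.38 ± 0.09 (adjusted p = 0.00876), each under 1.5-fold.

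PSB27 had 12.61, 12.40 and 12.35 in brm-1, 12.73, 12.59 and 12.62 in ga1-3, and 12.30, 12.41 and 12.15 in ga1-3/brm-1, against 12.67, 12.56 and 12.78 in wt. Here the double mutant alone was clear of wt, with a log2 fold change of -0.38 ± 0.10 (adjusted p = 0.0138), while ga1-3 stood at -0.02 ± 0.10. PSBY had 13.05, 12.88 and 12.86 in brm-1, 13.22, 13.09 and 12.80 in ga1-3, and 12.81, 12.93 and 13.03 in ga1-3/brm-1, against 13.32, 13.17 and 13.12 in wt. Its log2 fold changes were -0.27, -0.17 and -0.28 in brm-1, ga1-3 and the double mutant, and the lowest adjusted p was 0.0886. None of these 3 genes was called in any mutant.

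NdhN is a subunit of the chloroplast NDH complex, which feeds electrons from ferredoxin back into the plastoquinone pool around photosystem I. It had 7.57, 7.75 and 8.26 in brm-1, 7.91, 7.68 and 7.65 in ga1-3, and 8.38, 8.46 and 8.40 in ga1-3/brm-1, against 8.09, 7.81 and 7.61 in wt. The 3 double mutant arrays were close together and above the other 9, which overlapped. Against wt the log2 fold change in ga1-3/brm-1 was 0.58 ± 0.17 (adjusted p = 0.0245), a 1.49-fold difference that fell just short of the fold threshold. In brm-1 it was 0.03 ± 0.17 and in ga1-3 -0.09 ± 0.17. NdhN was thus the only one of the 9 genes whose double mutant arrays all lay above wt.

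PTL, the gene matched through its full name only, was near background in all 4 genotypes, with signals of 2.34, 2.21 and 2.33 in brm-1, 2.73, 2.13 and 2.23 in ga1-3, and 2.20, 2.82 and 3.36 in ga1-3/brm-1, against 2.01, 2.07 and 2.18 in wt. It passed the test in ga1-3/brm-1 at 0.71 ± 0.25 on the log2 scale (adjusted p = 0.0453). This call was lost in 10 of the 12 fits that each left out an array, and without replicate 3 of ga1-3/brm-1 the value was 0.43.

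Where brm-1 was added to ga1-3, that is in ga1-3/brm-1 against ga1-3, 3 of the 10 genes were called, where 20.8% of all probe sets were. LHCB4.3 fell by 1.57 ± 0.30 on the log2 scale (adjusted p = 0.00302), PSAN fell by 0.64 ± 0.10 (adjusted p = 0.000843) and NdhN rose by 0.67 ± 0.17 (adjusted p = 0.0142). By adjusted p alone, 5 of the 10 passed, where 34.3% of all probe sets did. The additional ones were LHCB4.2 at -0.54 ± 0.15 (adjusted p = 0.0197) and PSB27 at -0.36 ± 0.10 (adjusted p = 0.0204). At a stricter fold change above 2, 1 of the 10 remained in this comparison, where 8.8% of all probe sets did, and 0 in ga1-3/brm-1 against wt, where 12.2% did. The PSAN call lay close to the fold threshold and was lost after quantile normalization, at -0.58 on the log2 scale.

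Where ga1-3 was added to brm-1, that is in ga1-3/brm-1 against brm-1, LHCB4.3 alone of the 10 was called, where 8.76% of all probe sets were. It rose by 1.47 ± 0.30 on the log2 scale (adjusted p = 0.0111). With only the arrays of these 2 genotypes in the fit the adjusted p of this rise was 0.0668. NdhN had a log2 fold change of 0.55 ± 0.17 here (adjusted p = 0.0606), and without replicate 3 of brm-1, its highest brm-1 array, 0.75 (adjusted p = 0.00904). In brm-1 against ga1-3, LHCB4.3 was again the only call among the 10, where 14.7% of all probe sets were called.

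The interaction, the effect of brm-1 with ga1-3 minus its effect without, passed at an adjusted p below 0.05 for 0 of the 10 genes, where 8.9% of all probe sets passed. Of the 9 photosynthesis genes, 8 had a 95% interval that held 0. For LHCB4.3 the interaction was -0.18 ± 0.43 on the log2 scale (adjusted p = 0.839). Its 95% interval ran from -1.13 to 0.77. For PSAN it was -0.13 ± 0.14 and for LHCB4.2 -0.11 ± 0.22. The exception to the intervals was NdhN, with an interaction of 0.64 ± 0.25, an unadjusted p of 0.0259 and an adjusted p of 0.135. Without replicate 3 of brm-1 the NdhN interaction was 0.84 (adjusted p = 0.0255).

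**Figure D3:**
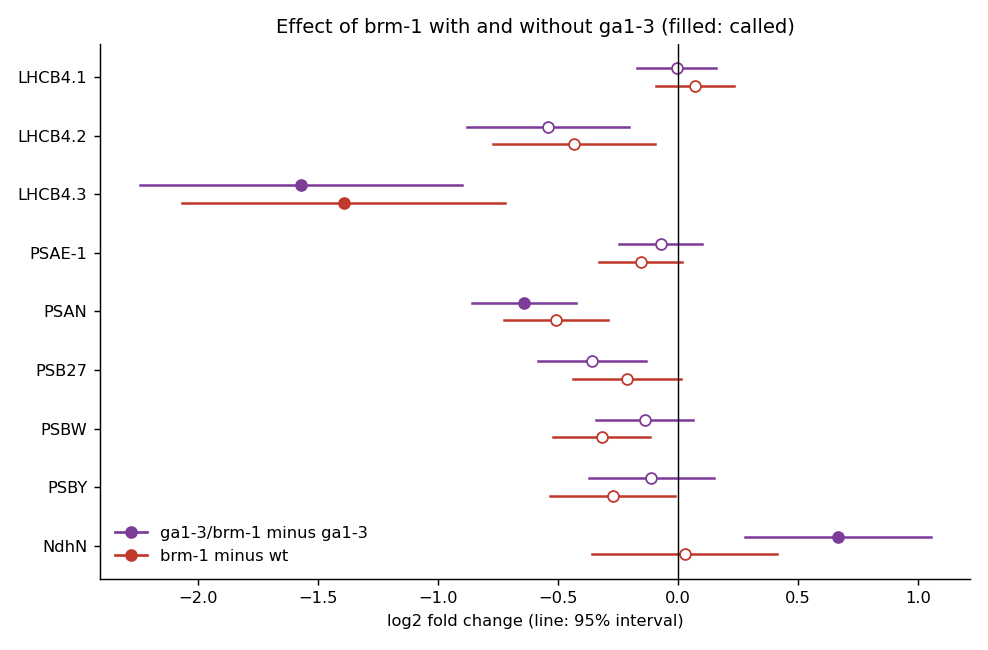
Log2 fold change of each of the 9 genes on loss of BRM, in ga1-3/brm-1 against ga1-3 and in brm-1 against wt; lines are 95% intervals and filled dots are called genes. The intervals of each gene overlap between the 2 backgrounds, with the widest gap of the estimates at NdhN (0.67 against 0.03).

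The spread between replicates differed among genotypes. The SD of the 9 genes ranged from 0.055 to 0.725 in brm-1 (median 0.138), from 0.078 to 0.241 in ga1-3 (median 0.128) and from 0.02 to 0.219 in ga1-3/brm-1 (median 0.071), against 0.043 to 0.242 in wt (median 0.083). Most of the genes had a bright probe set. In wt the mean of 6 of the 9 was above 12.94, the 99th percentile of the table, and this held in all 4 genotypes for 5 of them (LHCB4.1, LHCB4.2, PSAE-1, PSAN and PSBW). Whether signals so near the top of the scale understate a change was not tested. LHCB4.3 and NdhN lay in the middle of the scale.

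Of the 10 genes paired with a probe set only in the study's tables, 9 were photosynthesis genes, and PPAN (AT5G61770) matched only through its full name, a PETER PAN-like protein. Because these tables list genes called on the same arrays, their size of change was part of how they came to be named and is given as a description. The greatest difference was that of LHCB2.3 (AT3G27690), a gene for the main light-harvesting trimers of photosystem II. It had 10.81, 10.26 and 9.09 in brm-1, 10.47, 9.91 and 10.65 in ga1-3, and 8.37, 8.38 and 9.50 in ga1-3/brm-1, against 11.40, 11.69 and 11.76 in wt. All mutant arrays were below wt, and the log2 fold change was -1.56 for brm-1, -1.27 for ga1-3 and -2.86 for ga1-3/brm-1. Without replicate 3 of brm-1, its lowest brm-1 array, the brm-1 value was -1.08. LHCB3 (AT5G54270), another subunit of these trimers, stood at -0.25, -0.18 and -0.67 in brm-1, ga1-3 and the double mutant.

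On the side of photosystem I, PSAD-2 (AT1G03130), which forms the ferredoxin docking site with PSAE, had 13.71, 13.64 and 13.23 in brm-1, 13.998, 13.752 and 13.799 in ga1-3, and 12.59, 12.70 and 13.21 in ga1-3/brm-1, against 14.25, 14.29 and 14.05 in wt. Its double mutant arrays were the lowest of the 12, and its log2 fold changes were -0.67, -0.35 and -1.36 in brm-1, ga1-3 and the double mutant. Without replicate 3 of brm-1, its lowest brm-1 array, the brm-1 value of PSAD-2 was -0.52. PSAE-2 (AT2G20260) stood at -0.16, -0.26 and -0.58 and the antenna gene LHCA1 (AT3G54890) at -0.17, -0.09 and -0.64 in the same order. LHCA1 had 14.36, 14.30 and 14.05 in brm-1, 14.32, 14.31 and 14.33 in ga1-3, and 13.80, 13.76 and 13.73 in ga1-3/brm-1, against 14.40, 14.40 and 14.42 in wt. Its double mutant arrays were the lowest of the 12, followed by replicate 3 of brm-1. Lhca6 (AT1G19150), an antenna protein that joins photosystem I to the NDH complex, was lowest in ga1-3, at -0.92, and stood at -0.37 in brm-1 and at -0.54 in the double mutant.

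PSBO2 (AT3G50820), a subunit of the oxygen-evolving complex, stood at -0.61, -0.20 and -0.48 in brm-1, ga1-3 and the double mutant. PETE1 (AT1G76100), which encodes plastocyanin, stood at -0.58, -0.38 and -0.91. Without replicate 3 of brm-1 the brm-1 value of PSBO2 was -0.51. PnsB3 (AT3G16250), a subunit of the NDH complex like NdhN, differed from these: it had 9.63, 9.59 and 10.25 in brm-1, 9.05, 8.81 and 8.27 in ga1-3, and 9.95, 10.11 and 10.32 in ga1-3/brm-1, against 9.33, 9.16 and 9.13 in wt. All its brm-1 and double mutant arrays were above wt and all its ga1-3 arrays below, with log2 fold changes of 0.62, -0.49 and 0.92 in brm-1, ga1-3 and the double mutant.

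**Figure D4:**
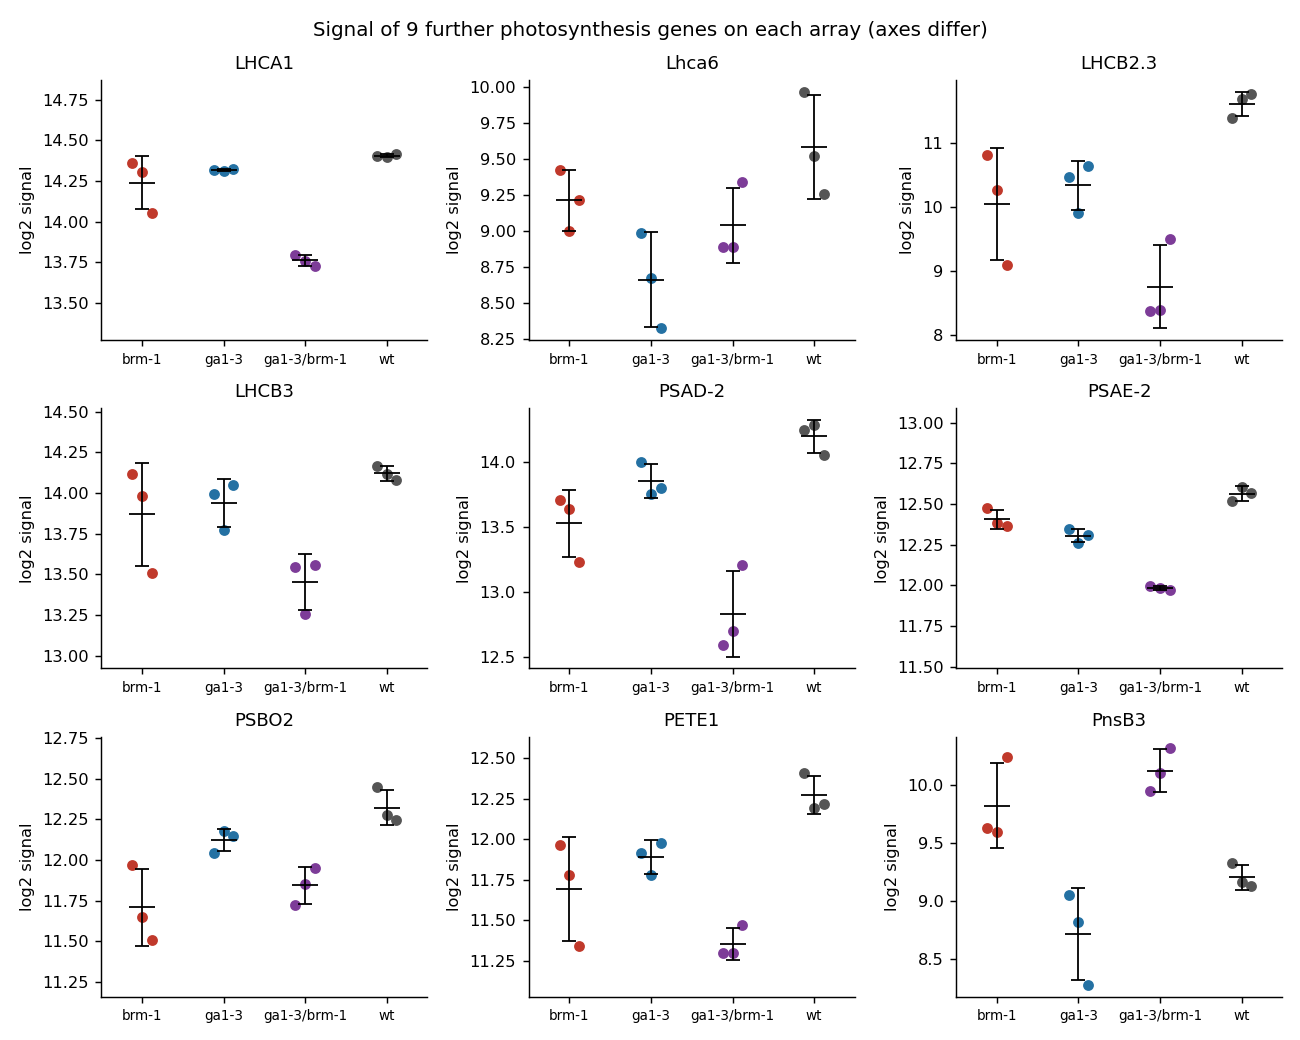
Log2 signal of the 9 photosynthesis genes paired with a probe set through the study's tables on each of the 12 arrays; dots are arrays (replicates 1 to 3 from left to right), horizontal bars are means and error bars are SD, and each panel has its own axis. LHCB2.3 spans 8.37 to 9.50 in ga1-3/brm-1 against 11.40 to 11.76 in wt, and PnsB3 is the one gene with brm-1 and double mutant arrays above wt.

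Other genes of the pathway were taken from lists of known members, and those named by the platform table were counted. In chlorophyll synthesis, 8 of 23 listed genes were so named, and 0 rose and 0 fell in each of the 3 mutants. Over all probe sets, 7.09% rose and 7.58% fell in brm-1, 4.06% and 4.74% in ga1-3, and 12% and 11.6% in ga1-3/brm-1. Their median log2 fold change was -0.17 for brm-1, -0.19 for ga1-3 and -0.26 for ga1-3/brm-1. The greatest difference was that of PORB, a protochlorophyllide reductase, at -0.51 in ga1-3/brm-1, and it was not called. Through the study's tables CH1, PORA and PORC, enzymes of chlorophyll b synthesis and protochlorophyllide reduction, were measured as well. They stood at -0.84, 0.89 and -0.33 in brm-1, at -0.92, -1.34 and -0.99 in ga1-3, and at -1.78, -0.33 and -0.73 in ga1-3/brm-1. Measured in the same way, HEMA1 stood at -0.40, -0.32 and -0.80 in brm-1, ga1-3 and the double mutant. In this order GUN4 stood at 0.03, -0.71 and -0.58, CRD1 at -0.43, -0.14 and -0.61, and CHLG at 0.24, 0.38 and 0.54.

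In the Calvin-Benson cycle, 4 of 19 listed genes were named by the platform table. Of these, PRK (phosphoribulokinase) fell in ga1-3/brm-1 by 0.62 ± 0.08 on the log2 scale (adjusted p = 0.000246), where 11.6% of all probe sets fell. None of the 4 was called in brm-1 or ga1-3, and their median was -0.29, 0.18 and 0.01 in brm-1, ga1-3 and the double mutant. FBA1, measured through the study's tables only, stood at -0.72, 0.32 and -0.35 in the same order. Of the other electron transport and ATP synthase genes, 2 of 14 were named. PGRL1B, a protein of cyclic electron flow, fell by 0.81 ± 0.15 in ga1-3/brm-1 (adjusted p = 0.00202), and ATPC1, a subunit of the ATP synthase, was at -0.29. Through the study's tables STN7, PGR5, PGRL1A and FD1 were measured as well. In brm-1, ga1-3 and the double mutant STN7 stood at -1.15, -0.43 and -1.45 and PGR5 at -0.94, -0.45 and -1.16. In this order PGRL1A stood at -0.74, -0.23 and -1.0002, and FD1 at 0.07, -0.03 and 0.55. Among regulators of photosynthesis genes 1 of 17 was named, HYH, a light-signaling transcription factor that lay near background and was not called. A further 5 regulators were measured through the study's tables. GLK2, a transcription factor that activates genes for chlorophyll and antenna proteins, stood at -1.41, -0.72 and -2.36 in brm-1, ga1-3 and the double mutant, and PIF5, a factor of light signaling, at -0.78, -0.44 and -1.82. The others were sigma factors of the plastid RNA polymerase, of which SIGA stood at -0.10, -0.66 and -0.59 in the same order and SIGF, on the other side of 0, at 0.29, 0.18 and 0.59. SIGE was at -1.39, -0.69 and -1.87, with mean signals near background in brm-1 (4.31) and in the double mutant (3.83).

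**Figure D5:**
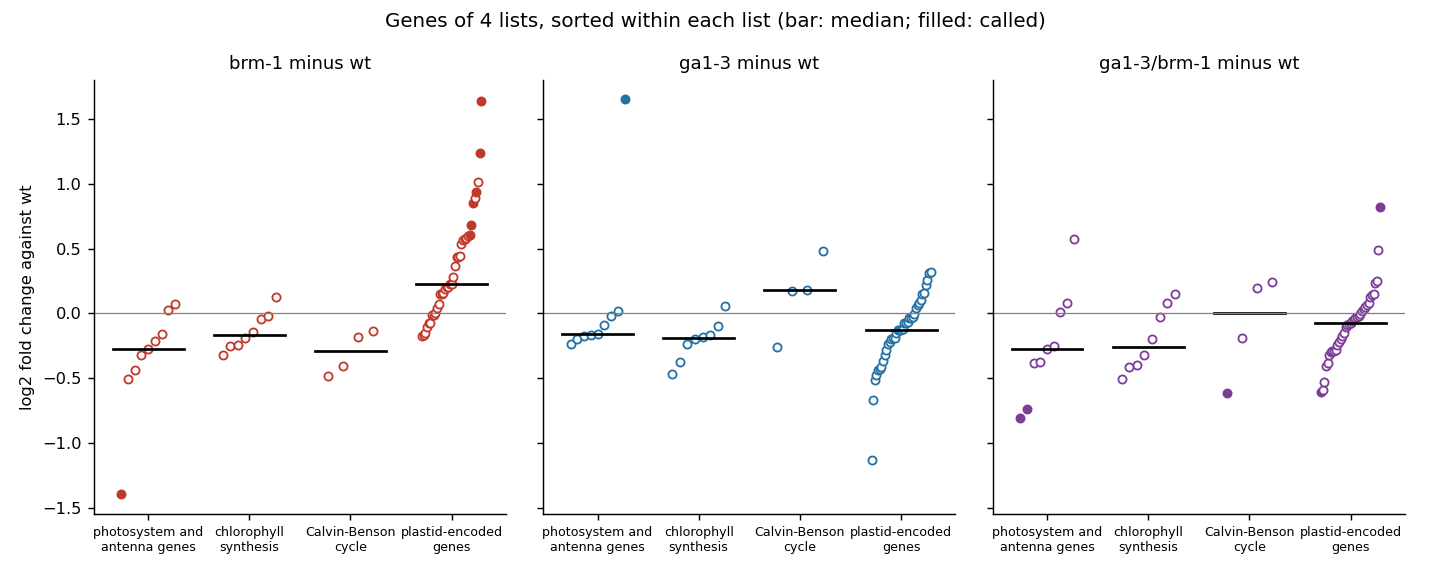
Log2 fold changes in brm-1, ga1-3 and the double mutant against wt of genes named by the platform table: the 9 photosynthesis genes, 8 genes of chlorophyll synthesis, 4 of the Calvin-Benson cycle and 37 plastid-encoded genes, sorted within each list; filled dots are called genes and bars are medians. The median of the 9 genes is -0.27, -0.16 and -0.28 in the 3 mutants, and that of the plastid-encoded genes is 0.23, -0.13 and -0.07.

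Partner subunits encoded in the chloroplast genome were read as well. Of 37 such genes, 6 rose and 0 fell in brm-1 (ndhD, ndhE, ndhG, psaC, psbB and rbcL), 0 were called in ga1-3, and 1 rose and 1 fell in ga1-3/brm-1 (psaC and psbC). Over all probe sets, 7.09% rose and 7.58% fell in brm-1, 4.06% and 4.74% in ga1-3, and 12% and 11.6% in ga1-3/brm-1. Their median log2 fold change was 0.23, -0.13 and -0.07 in brm-1, ga1-3 and the double mutant. This list was drawn up after the table had been examined. Whether labelling with a 3' IVT kit reads chloroplast transcripts in proportion to their level was not tested. The SD of these genes in ga1-3 ran from 0.049 (ndhI) to 2.22 (psaA). Replicate 3 of ga1-3 had 3.82 for psaA, against 7.92 and 7.34 in replicates 1 and 2. For psbA it lay on the other side, at 12.42 against 11.34 and 11.06. The 0 calls in ga1-3 therefore do not show that these genes were unchanged.

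Markers of leaf mesophyll and of other organs were read beside these values. Of the 3 leaf markers named by the platform table, 0 were called in brm-1 and ga1-3, and HPR, a photorespiratory enzyme, fell by 0.83 ± 0.08 on the log2 scale in ga1-3/brm-1 (adjusted p = 4.84e-05). The shares of all probe sets that fell were 7.58%, 4.74% and 11.6% in brm-1, ga1-3 and the double mutant. RCA had mean signals of 13.88, 14.46 and 14.09 in brm-1, ga1-3 and the double mutant, against 14.28 in wt, and SBPASE 11.58, 11.94 and 11.96, against 11.76 in wt. The 2 leaf markers named through the study's tables, CA1 and GLDP1, stood at -1.12 and -1.25 in brm-1, at -0.24 and -0.52 in ga1-3, and at -0.62 and -1.01 in ga1-3/brm-1. Of 7 root markers only PYK10, a beta-glucosidase that is abundant in roots and also made in seedling shoots, was paired with a probe set here. PYK10 rose by 1.71 ± 0.31 in ga1-3 (adjusted p = 0.00563), where 4.06% of all probe sets rose. In ga1-3/brm-1 it rose by 2.55 ± 0.31 (adjusted p = 0.000157), where 12% rose. In brm-1 it was not called, at 0.36 ± 0.31 (adjusted p = 0.476). Flower markers were seen through the study's tables only (PI, SEP1, SEP2 and SEP3), at mean signals from 2.23 to 8.26. SEP3 stood at 1.04, -2.10 and 0.40 in brm-1, ga1-3 and the double mutant, and PI at 0.33, 0.04 and -0.93. SEP1 and SEP2, near background in all genotypes, stood at -1.46, -1.06 and -2.00 and at -0.88, -1.50 and -1.84. The part of these differences in the values of the photosynthesis genes was not tested.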

How the data were processed

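Per the labels and the study's methods, RNA from shoots was labelled with a 3' IVT kit and hybridized to ATH1 arrays. The authors normalized the signals by GC-RMA in Partek and kept probe sets called present by MAS5.0 in at least 1 replicate of a genotype; software versions are not given in the sources used here. The deposited table holds log2 signals of 16824 probe sets. They were used as given, without 60 control probe sets, so that 16764 were tested. An array has no read depth, and the number of arrays limits the precision. No sample column was left unused.

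The platform table gives 1 gene for 9267 of these probe sets and several for 358, and does not list 7139. A further 1672 were named through the study's tables, from which only pairs of probe set and locus were taken. Their columns of fold changes and p-values were not used. Each member had 1 probe set, of the plain type, so the choice among probe sets had no effect.

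In R 4.3.3 with limma 3.58.1, genotype was fitted on all 12 arrays over all probe sets (lmFit, eBayes), with Benjamini-Hochberg adjustment over 16764. The study names an ANOVA with a second factor it does not describe, so genotype was the only term. A call needed an adjusted p below 0.05 and a fold change above 1.5, and the interaction an adjusted p alone. The code was tested on simulated data. A genotype mean under 4.71, the 26th percentile of the table, counts as near background. Per role group up to 4 genes with the greatest absolute change were named, as was every gene with a called interaction. All further members are named for completeness. A plan to name up to 4 genes of every other list by the same measure was not followed throughout. The 6 plastid genes called in brm-1, psbC, the leaf markers, SIGA and SIGF were named after their values were seen. The same holds for HEMA1, GUN4, CRD1, CHLG, FBA1, STN7, PGR5, PGRL1A and FD1. The members, the lists and the comparisons were chosen with earlier results of these data known. Alternatives were another normalization, centring, variance estimate, filter or threshold, the replicate number as a block, fits of 2 genotypes at a time, and each array left out. Promoter sequences were not analysed here. Figures were drawn with Python 3.11.15, pandas 2.3.3 and matplotlib 3.10.9.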

Additional observations from a re-analysis of the deposited data

Results flagged for a closer look

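The interaction passed for 0 of the 10 genes named by the platform table under the rule. For some genes of the lists the effect of brm-1 differed between the ga1-3 and the GA1 background. The measure was an interaction at an adjusted p below 0.05 in the limma fit. Of the 64 genes named by the platform table, members and lists together, 4 passed (6.25%), where 8.9% of all probe sets did, so the count is not particular to these genes. Log2 values are the effect of brm-1 with ga1-3 minus its effect without. HEME2, an enzyme of the early steps of chlorophyll synthesis, had 0.63 ± 0.15 (adjusted p = 0.0321) and HPR, an enzyme of photorespiration, -0.56 ± 0.12 (adjusted p = 0.0196). The chloroplast genes ndhE and psbB had -1.12 ± 0.27 (adjusted p = 0.0328) and -1.07 ± 0.17 (adjusted p = 0.00714). How the labelling reads chloroplast transcripts was not tested. Another 3 genes met the same threshold but were named through the study's tables, which list genes called on these arrays, so their values are a description. These were the PETER PAN-like gene PPAN at 0.81, PIF5 at -0.59 and GLDP1, an enzyme of photorespiration, at 0.76.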

How the results depend on the processing

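The counts of calls among the 10 genes in brm-1 and in ga1-3 against wt were 1 each in the main fit and in every alternative fit, except that the adjusted p alone gave 3 in brm-1. In ga1-3/brm-1 the adjusted p alone gave 7 against wt and 5 against ga1-3, in place of 3 each, and a fold change above 2 gave 0 and 1. Against brm-1 the count of 1 became 0 with only the arrays of the 2 genotypes, ranged from 1 to 2 when each array was left out, and was 2 without replicate 3 of brm-1 and of ga1-3 together, an alternative chosen after seeing the data. The interaction count of 0 ranged from 0 to 1 when each array was left out and was 1 without those 2 arrays. The additional call was NdhN wherever replicate 3 of brm-1 was absent. Against brm-1 it was PTL without replicate 1 of ga1-3/brm-1. LHCB4.2 in ga1-3/brm-1 against ga1-3 passed the fold threshold without replicate 2 of ga1-3 (-0.63) or replicate 3 of ga1-3/brm-1 (-0.66), and NdhN in ga1-3/brm-1 against wt passed it without replicate 1 of wt (0.70) and after quantile normalization (0.60).

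The labels do not say whether replicate numbers pair the samples. Arrays of the same number deviated from their genotype means with correlations from -0.198 to 0.119, over 0.1 in 1 of 18 pairs. Correlations of arrays with different numbers were not set beside these, so a shared batch was not excluded. With the number as a replicate block the counts against wt were 1 for brm-1, 1 for ga1-3 and 2 for the double mutant. For ga1-3/brm-1 they were 3 against ga1-3 and 1 against brm-1, the interaction had 0, and the call lost was that of PTL. Of the 70 values of the 10 genes over these contrasts and brm-1 against ga1-3, 10 were called and 0 of these changed sign, while 16 uncalled ones did under some setting.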
